A study of Ulva lactuca with 7 samples.

Results

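The comparison set transcript levels in thalli of the green seaweed Ulva lactuca after 36 h of desiccation against those after 24 h, with 1 library on each side and without the submerged control. Both groups are thalli, the flat blades of the alga, that were collected, acclimatised in the laboratory and dried at 20% moisture. The labels give no strain, age or pooling of thalli. The series holds 7 libraries, 1 per condition, so the pair is 2 of 7. The other libraries are thalli dried for 72 h, thalli returned to autoclaved seawater for 1 h after 24, 36 or 72 h of drying, and control thalli that were always submerged. RNA was sequenced with TruSeq-type libraries, and reads were counted on assembled transcripts.

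Ulva grows between the tide lines, where its blades lose water at each low tide and take it up again when the sea returns. Drying concentrates the cell contents, slows photosynthesis and exposes membranes and proteins to damage, and intertidal algas are known for surviving repeated cycles of it. The study varied the duration of drying, and the comparison of 36 h with 24 h sets a longer period beside a shorter one. The sources used here pair no transcript with a gene name or product, so transcripts are given by their assembly identifiers, and an assembled gene is an identifier without its isoform number. The labelled tissue could for that reason not be checked against marker genes. In whole thalli, fewer cells of a type and less RNA per cell cannot be told apart.

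The total count was 89184889 in the library dried for 36 h and 97270080 in the library dried for 24 h, and 63782317 to 89178193 in the other 5. Of 137594 transcripts in 90206 assembled genes, 66046 transcripts in 22319 genes had a mean count of 10 or more over the 7 libraries and were compared. Of these, 1546 had 0 counts at 36 h and 1460 had 0 counts at 24 h. At the edge of this filter, 12.1% of the 1119 transcripts with a mean count from 10 to under 11 and 13.1% of the 1289 with one from 9 to under 10 were at least 4-fold apart. With 1 library a side there is no p-value for the pair. Ratios of single transcripts have exact 95% intervals that cover counting error only, and no replicate shows how far thalli of one period differ among themselves.

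The libraries dried for 36 and 24 h were the closest of the 21 pairs of libraries. At least 4-fold apart in this pair were 5113 transcripts, against 5818 in the next closest pair, the libraries resubmerged and dried after 24 h, and 14570 in the most distant. With 1 transcript per assembled gene, the one with the highest summed count, 2424 were that far apart, and the pair was again the closest, ahead of 3155 for the libraries resubmerged after 72 and 24 h. Between 72 and 36 h of drying the number was 7356 transcripts, and between 72 and 24 h it was 10268. Within 2-fold of each other at 36 and 24 h were 71.4% of all transcripts, and 65.9% with 1 transcript per gene. Between 72 and 36 h of drying the shares were 70.1% and 61.3%.

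**Figure D1:**
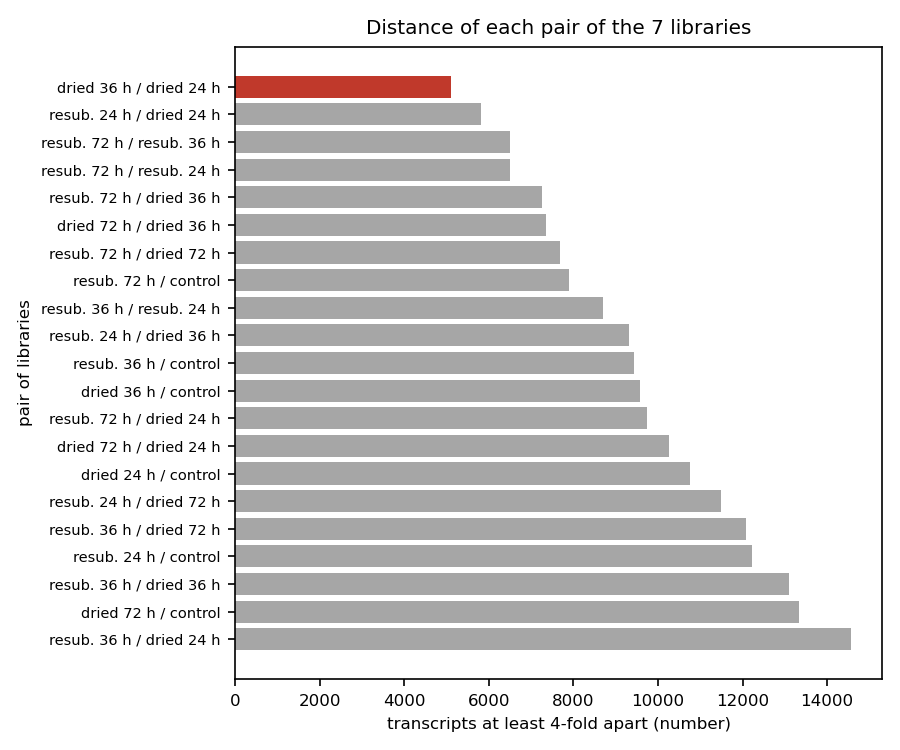
Number of transcripts at least 4-fold apart (x axis) in each of the 21 pairs of the 7 libraries (y axis), with 1 bar per pair and 1 library per condition. The red bar, 36 h against 24 h of desiccation, is the shortest with 5113 transcripts.

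At 36 h, 2676 transcripts (4.05% of those compared) were at least 4-fold higher than at 24 h and 2437 (3.69%) at least 4-fold lower. With 1 transcript per assembled gene, 1072 were higher (4.8%) and 1352 lower (6.06%). The balance of both directions depended on the scaling. By total counts the genes split into 1219 higher and 1104 lower and the median log2 ratio of all transcripts was 0.06, against -0.06 with trimmed-mean scaling, and with trimmed-mean factors from 1 transcript per gene the transcripts split into 2512 higher and 2767 lower. The 2676 higher transcripts held 3.44% of the counts at 36 h (Wilson 95% interval 3.43 to 3.44) and 0.423% at 24 h (0.421 to 0.424). The 2437 lower transcripts held 0.593% of the counts at 36 h (0.591 to 0.594) and 3.93% at 24 h (3.92 to 3.93). Both sets were chosen by the ratio of these same libraries, so the direction of both contrasts was fixed in advance. These intervals cover counting error within a library only.

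**Figure D2:**
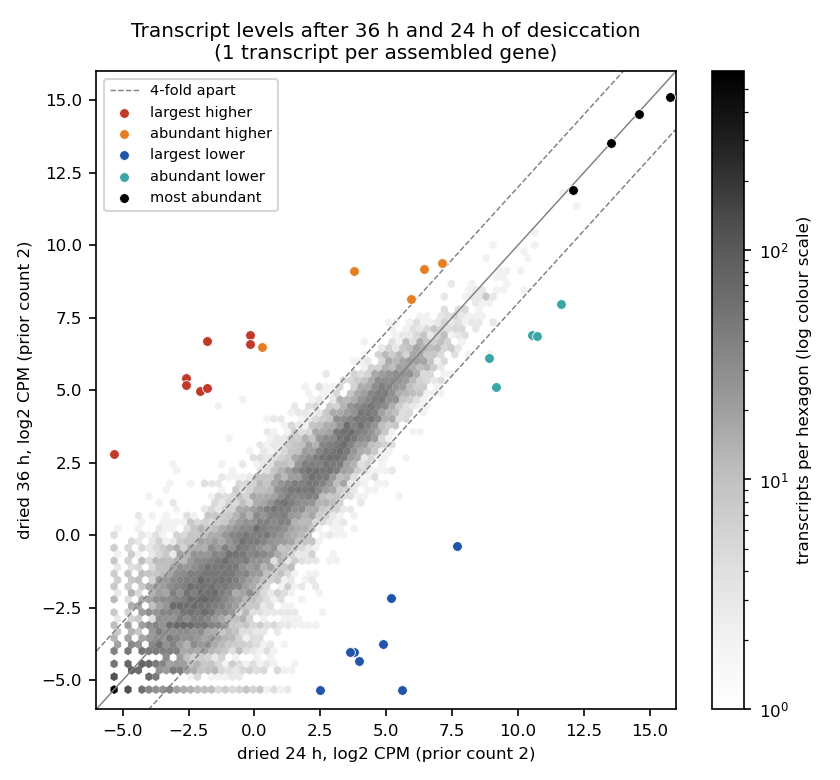
Level of each transcript after 36 h (y axis) and 24 h (x axis) of desiccation as log2 CPM (counts scaled to library size), for 1 transcript in each of 22319 assembled genes, with grey hexagons shaded by the number of transcripts and dashed lines 4-fold from equality. Coloured points are transcripts described in the text: the 8 largest ratios in each direction, the 5 most abundant others past 4-fold in each direction, and the 4 most abundant of all, which lie near the line of equality.

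The largest ratios on the higher side came from transcripts that were nearly absent in the library dried for 24 h. Transcript c34427_g1_i1 (1128 nt, 62.0% GC) had 8449 counts at 36 h and 21 at 24 h, a ratio of 393 (95% counting interval 257 to 635). It had 1555 counts after 72 h of drying, 92, 37587 and 3967 in the libraries resubmerged after 24, 36 and 72 h, and 19709 in the control. Both libraries of the 24 h period were thus low, and the other 5 were not. Of the 3 transcripts of c34427_g1 past the filter, 2 were at least 4-fold higher at 36 h. Transcript c30841_g2_i1 (3300 nt, 59.5% GC) had 3502 counts at 36 h and 11 at 24 h, a ratio of 311 (174 to 624). Its counts were 574 after 72 h of drying, 20, 4020 and 1219 after resubmergence from 24, 36 and 72 h, and 3683 in the control. All 4 of its gene's transcripts past the filter were at least 4-fold higher at 36 h. Transcript c29999_g1_i2 (1476 nt, 50.2% GC) had 2951 counts at 36 h and 11 at 24 h, a ratio of 262 (146 to 526), with 11 counts in the library resubmerged after 24 h, 6951 in that resubmerged after 36 h and 5224 in the control. All 7 transcripts of its gene past the filter were at least 4-fold higher at 36 h, though isoforms of a gene can share reads.

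Transcripts c32243_g1_i5 (4849 nt, 56.0% GC), c34433_g1_i4 (6913 nt, 65.9% GC) and c32302_g1_i4 (4638 nt, 64.9% GC) also had their lowest counts in both libraries of the 24 h period, with smaller ratios. For c32243_g1_i5 the counts were 9829 at 36 h and 68 at 24 h, a ratio of 141 (111 to 182), with 108 counts after resubmergence from 24 h and 4336 in the control. For c34433_g1_i4 they were 7851 at 36 h and 69 at 24 h, a ratio of 111 (87.8 to 143), and 836 after resubmergence from 24 h against 27787 in the control. For c32302_g1_i4 they were 2755 at 36 h and 21 at 24 h, a ratio of 128 (83.7 to 207), and 232 after resubmergence from 24 h against 4672 in the control. In these 3 transcripts the library resubmerged after 24 h stood above the library dried for 24 h and below every other library.

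Both remaining transcripts of this group had other profiles. Transcript c59737_g1_i1 (840 nt, 55.7% GC) had 558 counts at 36 h and 0 at 24 h. With the 0 set at a floor of 3 counts it was 182-fold higher at 36 h, and the lower 95% counting limit was 147-fold. It had 324 counts after 72 h of drying, 0, 5 and 4 in the libraries resubmerged after 24, 36 and 72 h, and 286 in the control. Transcript c34720_g1_i4 (2305 nt, 38.4% GC) had 2564 counts at 36 h and 17 at 24 h, a ratio of 147 (91.9 to 253), with 476 counts after 72 h of drying, 16 in the control and 60 to 209 in the 3 resubmerged libraries. Here 36 h was the highest of the 7 libraries.

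On the lower side, some transcripts were found at 24 h alone and others were nearly missing at 36 h alone. Transcript c21972_g2_i1 (458 nt, 54.8% GC) had 0 counts at 36 h and 3858 at 24 h, and 0 in each of the other 5 libraries. Against a floor of 3 counts it was at least 1316-fold lower at 36 h, with a counting limit of 1069.8-fold. Transcript c21320_g1_i1 (1638 nt, 54.5% GC) likewise had 0 counts at 36 h and 448 at 24 h, and 0 in the other 5 libraries. With the same floor it was 153-fold lower, and the lower counting limit was 124-fold. Both passed the filter only through the library dried for 24 h, so their presence there was a condition of being compared. Transcript c34129_g5_i1 (1247 nt, 54.9% GC) had 4 counts at 36 h and 2313 at 24 h, 592-fold lower (231 to 2174), while the other 5 libraries held 485 to 1807 counts. Transcript c29364_g3_i2 (985 nt, 57.4% GC) had 16 counts at 36 h and 2850 at 24 h, 182-fold lower (112 to 319), while the other 5 held 480 to 1220. In this last pair of transcripts the library dried for 36 h was the lowest of all.

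A further profile was shared by c34710_g1_i1 (3513 nt, 44.3% GC), c34211_g3_i1 (231 nt, 54.1% GC) and c27598_g1_i1 (242 nt, 50% GC). For c34710_g1_i1 the counts were 60 at 36 h and 16301 at 24 h, 278-fold lower (216 to 365). It also had 35, 415 and 48 counts after resubmergence from 24, 36 and 72 h, 1539 after 72 h of drying and 1139 in the control. For c34211_g3_i1 they were 3 at 36 h and 1081 at 24 h, 369-fold lower (126 to 1791), with 106 after 72 h of drying and 99 in the control. For c27598_g1_i1 they were 3 at 36 h and 974 at 24 h, 332-fold lower (113 to 1614), with 69 after 72 h of drying and 73 in the control. In all 3 the library dried for 24 h was the highest, and those dried for 72 h and the control came next. Transcript c31749_g1_i1 (1009 nt, 58.7% GC) had 2 counts at 36 h and 1232 at 24 h, 630.4-fold lower (174 to 5211), but 21553 after 72 h of drying, 0, 1378 and 9909 after resubmergence from 24, 36 and 72 h, and 8306 in the control. Of the 3 dried libraries the one of 36 h was the lowest.

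**Figure D3:**
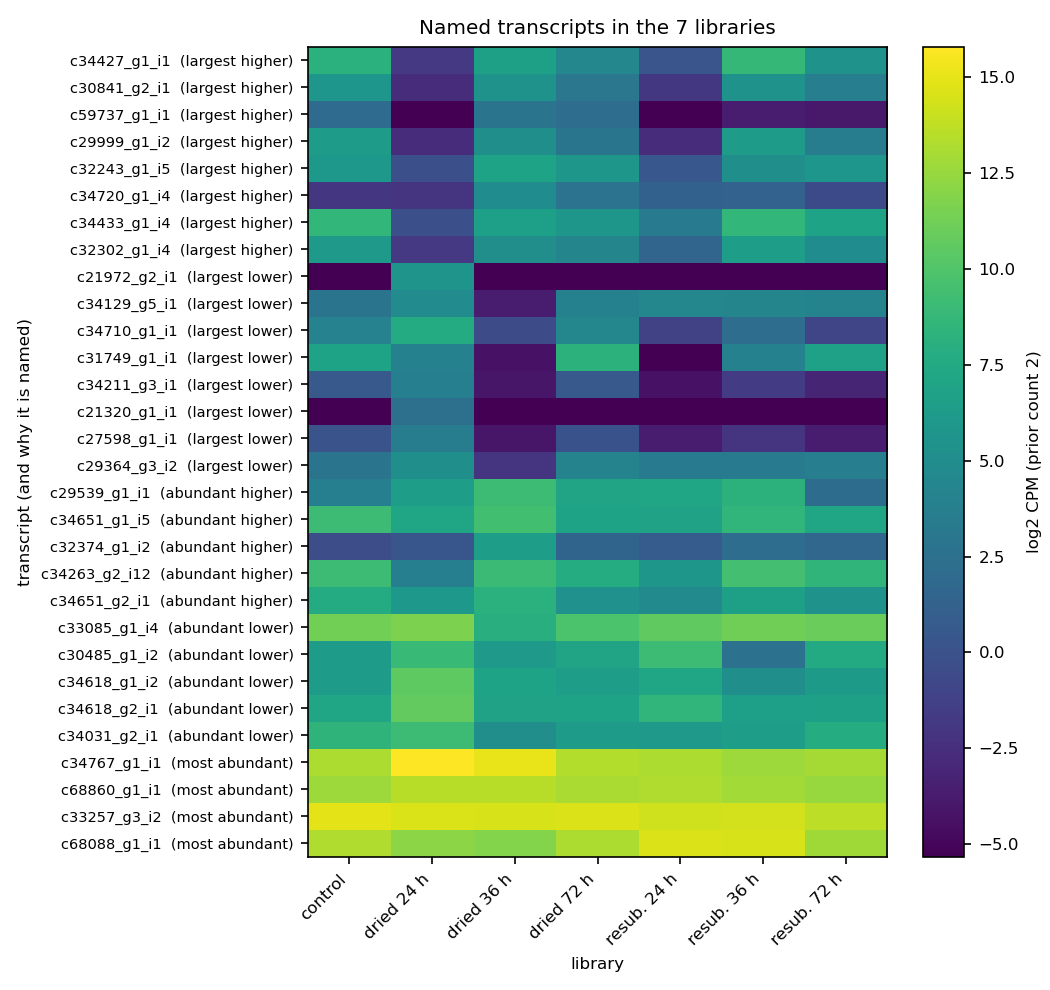
Levels of the 30 transcripts chosen by ratio or abundance (rows, with the reason for the choice in brackets) in the 7 libraries (columns), as log2 CPM from dark for low to bright for high. The transcripts with the largest ratios on the higher side are dark in the column of 24 h of drying and several of them also in that of resubmergence after 24 h.

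The abundant transcripts that differed are given per length, as the deposited FPKM values, which the authors scaled to transcript length and library size. Ratios and intervals beside them are of trimmed-mean scaled counts and differ from the quotient of the FPKM values. The FPKM values also imply library sizes other than the total counts given above. Transcript c29539_g1_i1 (201 nt, 67.7% GC) had an FPKM of 7209 at 36 h and 898 at 24 h, from 47083 and 6850 counts, a ratio of scaled counts of 6.72 (6.55 to 6.89). Transcript c34651_g1_i5 (1564 nt, 56.3% GC) had an FPKM of 1081 at 36 h and 185 at 24 h, with a ratio of scaled counts of 4.90, and c34651_g2_i1 (1230 nt, 45.4% GC), which shares the first part of its identifier, 573 at 36 h and 105 at 24 h, with one of 4.59. Both were low at 24 and 72 h of drying and high at 36 h, with 10954, 54941 and 8781 counts of c34651_g1_i5 in this order of time and 39305 in the control. Transcript c34263_g2_i12 (2291 nt, 60.1% GC) had an FPKM of 603 at 36 h and 12.6 at 24 h, and a ratio of scaled counts of 39.95 (37.6 to 42.5), with 4744 counts in the library resubmerged after 24 h, 60438 in that resubmerged after 36 h and 39436 in the control. Of the 16 transcripts of c34263_g2 past the filter, 9 were at least 4-fold higher at 36 h. Transcript c32374_g1_i2 (367 nt, 54.2% GC) had an FPKM of 609 at 36 h and 6.82 at 24 h, and a ratio of scaled counts of 74.6 (61.0 to 92.4), and its 7256 counts at 36 h compared with 52 to 412 in the other 6 libraries.

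For the abundant transcripts on the lower side, too, folds are of trimmed-mean scaled counts and not of the FPKM values beside them. Transcript c33085_g1_i4 (1541 nt, 57.6% GC) had an FPKM of 412 at 36 h and 4382 at 24 h, and its scaled count was 12.7-fold lower (12.5 to 12.9). Its 20644 counts at 36 h were the fewest of the 7 libraries, the others holding 63628 to 256164. Transcripts c34618_g1_i2 (1933 nt, 32.3% GC) and c34618_g2_i1 (2385 nt, 26.8% GC) were both rich in A and T and peaked at 24 h. The first had an FPKM of 155 at 36 h and 1597 at 24 h, with a scaled count 12.3-fold lower (12.1 to 12.6), and the second 122 at 36 h and 1490.4 at 24 h, with a scaled count 14.6-fold lower (14.3 to 14.9). Transcript c30485_g1_i2 (578 nt, 60.9% GC) had an FPKM of 297 at 36 h and 1736 at 24 h, with a scaled count 6.98-fold lower (6.79 to 7.18), and 532 counts after resubmergence from 36 h against 46674 from 24 h. Transcript c34031_g2_i1 (826 nt, 47.7% GC) had an FPKM of 104 at 36 h and 1445 at 24 h, with a scaled count 16.6-fold lower (15.99 to 17.3), with 5790 counts after 72 h of drying and 23435 in the control.

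The 4 most abundant transcripts differed by less than 2-fold. Transcript c34767_g1_i1 (1195 nt, 37.9% GC) took 3.24% of all counts at 36 h and 4.63% at 24 h, a ratio of scaled counts of 0.628 (0.627 to 0.629), and had 591825 to 755857 counts in the other 5 libraries. Transcripts c68860_g1_i1, c33257_g3_i2 and c68088_g1_i1 had ratios of 1.00, 0.937 and 0.864 at 36 h over 24 h. No direction is read from these 3 ratios, which lie close to 1.

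Levels of the differing genes in the other libraries were examined with 1 transcript per gene. The 1072 higher at 36 h had a median log2 CPM of -2.99, -0.10 and -0.57 after 24, 36 and 72 h of drying, of -2.26, -1.19 and -1.01 after resubmergence from these periods, and of -1.96 in the control. The level at 72 h was nearer to that at 36 h than to that at 24 h in 72.6% of them, and the level in the library resubmerged after 24 h in 25%. For the libraries resubmerged after 36 and 72 h the shares were 59.4% and 64.2%, and for the control 41.6%. The 1352 lower at 36 h had medians of -0.14, -3.34 and -1.35 after 24, 36 and 72 h of drying, of -1.39, -1.79 and -1.28 after resubmergence from these periods, and of -2.83 in the control. For these the control was nearer to 36 h in 70.2%, while the 72 h library was nearer to 36 h in 49.4%. The libraries resubmerged after 24, 36 and 72 h were nearer to 36 h in 39.6%, 53.8% and 49.9%. Nearness was judged from the midpoint of the same libraries that chose the genes, and no expected share is known. All 22319 genes had medians between -0.63 and 0.06 in the 7 libraries.

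**Figure D4:**
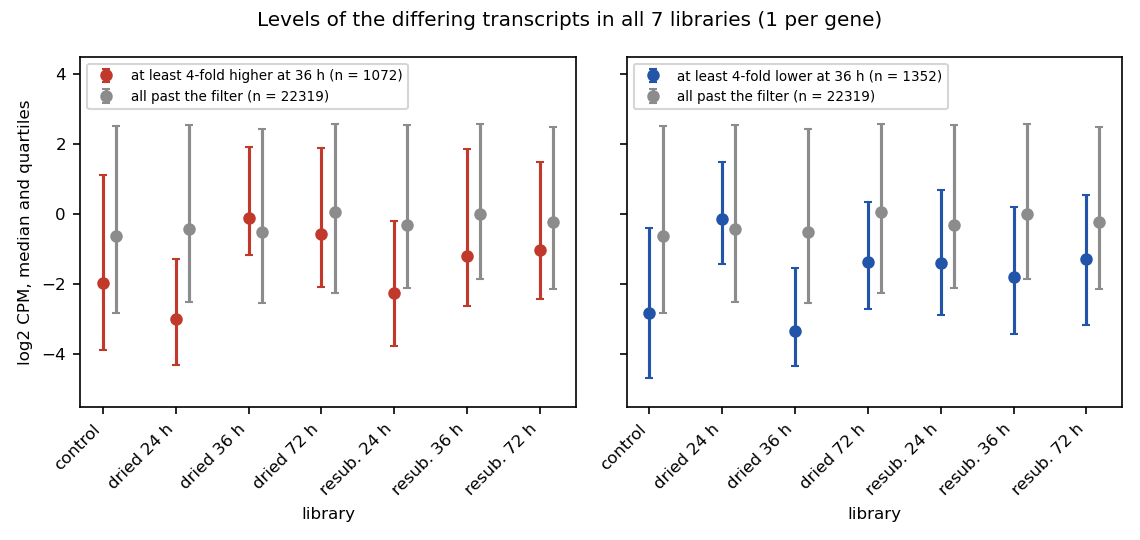
Median and quartiles of log2 CPM (y axis) in each of the 7 libraries (x axis) for the 1072 genes at least 4-fold higher (red, left) and the 1352 at least 4-fold lower (blue, right) after 36 h than after 24 h, with all 22319 genes in grey, 1 transcript per gene. The dried 36 h and 24 h points differ because the genes were chosen by them, and the remaining libraries show where these genes stand elsewhere.

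The next 4 transcripts were chosen, after their values were seen, because they were at least 4-fold apart in 1 direction at both steps of the drying series. Others, such as c31749_g1_i1 and c32374_g1_i2, turned back at 72 h. The steps share the library dried for 36 h, and no general direction is read from these examples. Transcript c34273_g2_i6 (2486 nt) had 1341, 10164 and 48783 counts after 24, 36 and 72 h of drying and 25640 in the control, and c33604_g1_i1 (2575 nt) had 320, 2835 and 22078 and 5535 in the control. Both were thus below the control at 24 h. Transcript c30748_g1_i2 (903 nt) had 17, 115 and 10156 counts in the 3 dried libraries and 36 in the control. In the other direction, c28332_g1_i1 (527 nt, 19.7% GC) had 4700, 615 and 123 counts and 735 in the control.

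Some transcripts set 1 library of the pair apart from the other 6, and here too the sets and examples were chosen after the values were seen. The library dried for 36 h was at least 4-fold above every other in 89 transcripts of 55 genes (0.135%) and below every other in 115 of 59 genes (0.174%). The library dried for 24 h was at least 4-fold above every other in 169 transcripts of 144 genes (0.256%) and at least 4-fold below every other in 213 of 70 genes (0.323%). The 89 were short, with a median length of 311 nt against 1759 nt for all transcripts compared, and the 169 had a median of 656 nt. The 213 were rich in G and C, with a median of 63.6% against 56.8%, and the 115 had 61.7%. Isoforms of a gene count separately in these medians, and 15 of the 115 belong to the single gene c32329_g1. Medians with 1 transcript per gene were not computed for these sets. Transcripts c34288_g1_i2 (324 nt) and c23652_g1_i1 (295 nt) belong to the 89 and had 5435 and 4615 counts at 36 h, 86 and 692 at 24 h, and at most 214 and 978 in the other 5 libraries. Transcript c32329_g1_i8 (2162 nt, 61.7% GC) is one of the 115, with 91 counts at 36 h and 3217 at 24 h, and 797 to 6002 elsewhere. At least 50 counts at 36 h and 0 at 24 h were found in 32 transcripts (0.0485%), and at least 50 at 24 h and 0 at 36 h in 68 (0.103%). Transcripts high in a single library could pass the filter through that library alone.

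Some transcripts set both libraries of the 24 h period, dried and resubmerged, apart from the rest. In 292 transcripts of 98 genes (0.442%) both were at least 4-fold below each of the other 5 libraries, and in 35 of 30 genes (0.053%) both were at least 4-fold above. For both libraries of the 36 h period the numbers were 5 below and 1 above, of 66046 transcripts. Among the 292, c31711_g1_i1 (285 nt) had 2879 counts at 36 h and 423 at 24 h, 27237 and 441 in the libraries resubmerged after 36 and 24 h, and 15340 in the control. Among the 35, c32589_g1_i1 (1519 nt) had 1689 counts at 36 h and 8564 at 24 h, 1424 and 7142 after resubmergence from 36 and 24 h, and 296 in the control. The period and anything else that the thalli or libraries of 24 h had in common cannot be told apart.

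The pair resubmerged after 36 and 24 h shares no library with the dried pair and shows the same difference of periods after 1 h in seawater. There 5130 transcripts (7.77%) were at least 4-fold higher after 36 h than after 24 h and 3565 (5.4%) lower. With 1 transcript per assembled gene, 2057 genes (9.22%) were at least 4-fold higher after 36 h than after 24 h and 1391 (6.23%) lower. Of the 1072 genes higher in the dried pair, 402 (37.5%) were higher in the resubmerged pair too, which is 19.5% of its 2057, and 41 were lower. Of the 1352 lower in the dried pair, 279 (20.6%) were lower in the resubmerged pair too, which is 20.1% of its 1391, and 142 (10.5%) were higher. The median log2 ratio in the resubmerged pair was 1.35 for the 1072, -0.45 for the 1352 and 0.04 for all 22319 genes. Pearson's r between the log2 ratios of both pairs was 0.31 across 66046 transcripts and 0.24 across 22319 genes, which share an assembly and are not independent replicates.

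The dried and resubmerged libraries together allowed a test of the period. It was fitted with edgeR's quasi-likelihood method to all 6 dried or resubmerged libraries, with the state and the period as terms. It asks about 36 h against 24 h over both states, not about the dried pair alone. At an adjusted p under 0.05, 81 of 66046 transcripts (0.123%) in 21 assembled genes were higher after 36 h and 0 were lower. An unadjusted p under 0.05 was found for 3986 higher and 3603 lower transcripts, and DESeq2 called 2124 higher and 1781 lower. The same edgeR test without the filter on low counts called 3637 transcripts, 2204 higher and 1433 lower. The fit has 2 residual degrees of freedom, and neither the number of calls nor the lack of lower ones held under these choices. The 81 had fitted log2 changes of 3.58 to 14.34 with a median of 6.22, and adjusted p-values of 0.0232 to 0.0489. In the dried pair 80 of the 81 were at least 4-fold higher at 36 h, and in the resubmerged pair all 81 were, which the test on these same libraries largely fixes. Their median count was 963 in the library dried for 36 h and 10 in that dried for 24 h, 2701 and 25 in the libraries resubmerged after 36 and 24 h, and 2057 in the control, which the fit did not use.

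All 7 transcripts of c29999_g1 past the filter passed this test, as did all 10 of c32350_g1 and all 4 of c30841_g2, and isoforms can share reads and are not independent. In other genes only a part passed, such as 9 of 15 transcripts of c32769_g1, 4 of 8 of c32700_g1 and 2 of 7 of c34433_g1. The smallest p-values belonged to c29999_g1 and c30841_g2, where c29999_g1_i4 had 1234 counts at 36 h and 2 at 24 h and a fitted log2 change of 8.90 (adjusted p = 0.0232, edgeR). Transcript c34427_g1_i1 passed with a log2 change of 8.57 and an adjusted p of 0.0232. Of the other transcripts named above by ratio or abundance, only c29999_g1_i2 and c30841_g2_i1 passed, also at 0.0232. Without the library dried for 24 h, or without that resubmerged after 24 h, 0 transcripts passed in edgeR, with 4473 and 3352 at an unadjusted p under 0.05. Without the library dried for 36 h 2757 did (1640 higher and 1117 lower), and without that resubmerged after 36 h 105 did (84 higher and 21 lower). In each of these fits the lone library left for a period is assumed to vary like the others. Without the term for the state 0 passed (edgeR, 4776 at an unadjusted p under 0.05), and 19 passed after a running median over GC content was subtracted in every library.

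Differences between 36 and 24 h were unevenly spread over base composition. Among the 133 genes under 35% GC, 1 was at least 4-fold higher at 36 h and 33 (24.8%) were lower, with a median log2 ratio of -0.86, against -0.06 for all genes. Their median log2 CPM was -0.18, -1.02 and -1.64 after 24, 36 and 72 h of drying, -2.10, -2.34 and -2.19 after resubmergence from these periods and -0.70 in the control. Among the 3612 genes of 40 to 50% GC, 82 were higher and 513 lower, and among the 18401 of 50% GC or more, 965 were higher and 789 lower. The excess of lower genes in the first and second of these bands kept its direction when total counts or DESeq2 size factors replaced trimmed means, with 2 higher and 29 lower, and 95 higher and 437 lower, by total counts. The order in the band of 50% GC or more was nearly even, at 913 higher and 894 lower, with trimmed-mean factors from 1 transcript per gene. With trimmed means over all transcripts, 55 to 60% GC had 360 higher and 233 lower, and 60 to 65% had 242 and 175. At 50 to 55% GC there were 291 higher and 305 lower, and at 65% or more 72 and 76. The 173 genes of 35 to 40% GC had 24 higher and 17 lower. The least squares slope of the log2 ratio was 0.06 per 10 points of GC across transcripts and 0.16 with 1 transcript per gene, but 0.0097 across transcripts with a mean count of 50 or more. With a running median over GC content subtracted, 1154 genes were higher and 1186 lower. In the resubmerged pair the 133 genes under 35% GC had 11 higher and 14 lower, and those of 65% GC or more had 258 higher and 105 lower. The slope in that pair was 0.09 per 10 points of GC across transcripts and 0.16 with 1 transcript per gene, so a slope on GC was not particular to the dried pair. The part of GC content in the differences of single transcripts was not tested.

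**Figure D5:**
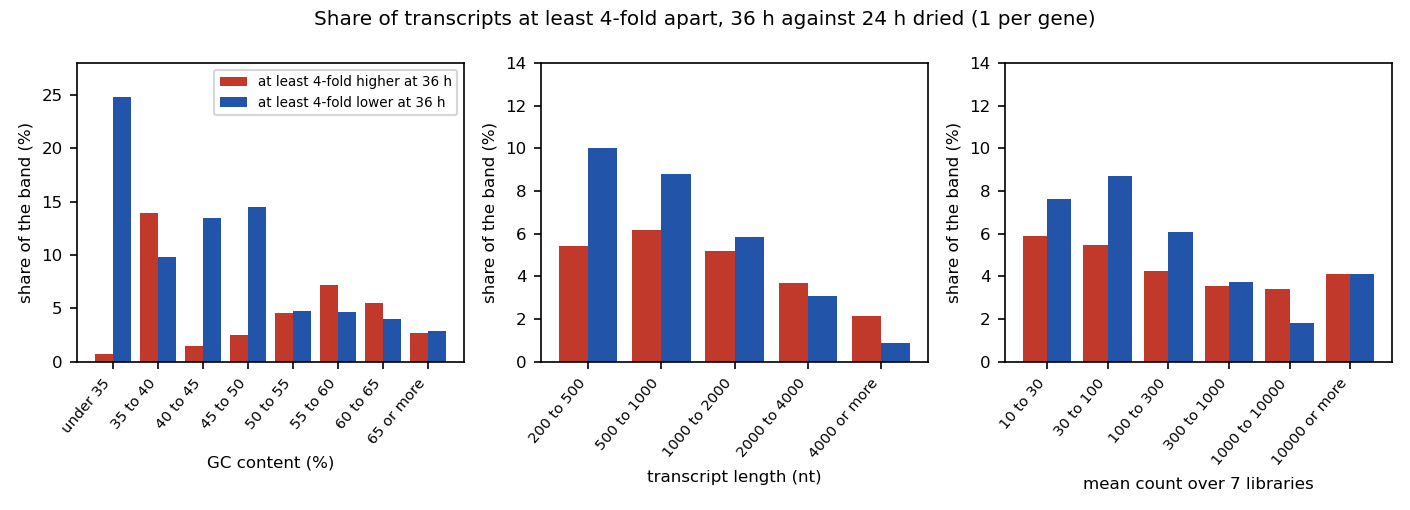
Share of genes at least 4-fold higher (red) or lower (blue) after 36 h than after 24 h (y axis, percent of the band) by GC content, transcript length and mean count (x axes), with 1 transcript per assembled gene. Lower genes reach 24.8% of the band under 35% GC, and by length the shares are smallest, 2.16% higher and 0.88% lower, at 4000 nt or more.

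Long transcripts differed least often. Of the 3501 genes represented by a transcript of 200 to under 500 nt, 5.43% were at least 4-fold higher and 10% lower, and of the 2501 at 4000 nt or more, 2.16% were higher and 0.88% lower. By mean count, 5.89% were higher and 7.64% lower from 10 to under 30 counts, 3.4% higher and 1.83% lower from 1000 to under 10000, and 4.1% higher and 4.1% lower among the 268 genes of 10000 or more.

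Isoforms of 1 assembled gene were seldom at least 4-fold apart in opposite directions. More than 1 transcript was compared in 10455 genes, and 664 of these had a transcript at least 4-fold higher at 36 h, in 294 of them all transcripts, and 615 had one at least 4-fold lower, in 266 of them all. Of all transcripts compared, 4.05% were higher and 3.69% lower. Isoforms can share reads, so their agreement in direction is no independent result. In 5 genes 1 transcript was higher and another lower. In c30857_g1, for example, c30857_g1_i6 (741 nt) had 1085 counts at 36 h and 234 at 24 h, and c30857_g1_i1 (557 nt) had 259 at 36 h and 1025 at 24 h, an example chosen after its values were seen.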

How the data were processed

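Per the file headers, the deposited table holds a whole-number read count and an FPKM for every assembled transcript in every library. Length and GC content (a percent value) are deposited beside them. Per the submitters' processing notes, DESeq, Bowtie2 and cutadapt were used, in roles and versions not stated, and the sources used here name neither assembler nor counting program, nor how reads that fit several isoforms were counted. The deposited counts were used as they stand. Isoforms can share reads, so results are given also with 1 transcript per assembled gene. The authors' pairwise tables hold no comparison of 36 h with 24 h and were not used.

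Groups came from the treatment labels, also for the control, whose title begins like those of the 24 h libraries. The filter kept a mean count of 10 or more across all 7 libraries. Scaling was by edgeR's TMM (version 4.0.16, R 4.3.3), log2 CPM had a prior count of 2, and transcripts counted as apart from a 4-fold difference on. Ratios of named transcripts used scaled counts with exact (Clopper-Pearson) 95% intervals, and a count of 0 was set at a floor of 3 counts per library, 0.0369 CPM at 36 h and 0.0377 CPM at 24 h. These limits express counting error alone, because PCR copies are not told apart from separate molecules.

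For the period, a quasi-likelihood fit in edgeR took 6 libraries with state and period as additive terms, 2 residual degrees of freedom and a biological coefficient of variation of 50.8%. The threshold was 0.05 on the Benjamini-Hochberg adjusted p over all transcripts compared, with DESeq2 1.42.0 as the alternative tool. The residual holds the departure of single libraries from the sum of both terms, nothing says that libraries came from separate cultures, and the p-values reflect no more than the spread among these libraries, which may be technical.

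Named transcripts are, with 1 per assembled gene, the 8 with the highest lower counting limit of the ratio and the 8 with the lowest upper limit, then the 5 most abundant others past 4-fold in each direction by FPKM, and the 4 most abundant of all. To these come, without that limit per gene, up to 5 transcripts with the smallest p-values among those that passed the period test. The comparison and these rules were chosen with earlier results of these data known. Other scalings, filters, prior counts, thresholds, a running median over GC content, and summed counts per gene were tried.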

Additional observations from a re-analysis of the deposited data

Results flagged for a closer look

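In 3 of the transcripts named by their ratio, the difference between 36 and 24 h of drying ran in opposite directions in the dried and in the resubmerged pair, by at least 4-fold in each. With 1 library per condition the difference between the pairs was not tested. Transcript c31749_g1_i1 had a log2 ratio of 9.31 in the resubmerged pair, from 1378 counts after 36 h and 0 after 24 h, and of -8.29 in the dried pair. A fitted ratio against 0 counts depends on the prior count. Transcript c34710_g1_i1 had a log2 ratio of 3.39 in the resubmerged pair, from 415 and 35 counts after 36 and 24 h, and of -8.07 in the dried pair. Transcript c34211_g3_i1 had a log2 ratio of 2.66 in the resubmerged pair, from 25 and 2 counts after 36 and 24 h, and of -7.78 in the dried pair.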

How the results depend on the processing

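Pairing by replicate was not possible because each condition has 1 library and the labels give no replicate numbers. The state is the only blocking term, in the period test. The cause of the shifts was not tested unless fewer or more transcripts, another fold or fewer libraries make it by construction. Without a filter, 4114 transcripts were higher and 3689 lower at 36 h and 2344 genes higher and 2567 lower, and at a mean count of 50 or more 1766 and 1400 transcripts and 495 and 590 genes. At 2-fold the numbers were 8734 and 10163 transcripts and 3308 and 4309 genes, and at 8-fold 976 and 794 transcripts and 376 and 495 genes. One transcript per gene gave 1072 higher and 1352 lower. Total counts, DESeq2 size factors, trimmed means from 1 transcript per gene, prior counts of 0.5 and 5, a removed GC trend, a filter on the 2 libraries alone (added after the data were seen) and counts summed per gene (1228 higher and 1273 lower) kept each number within 1.5 times. The GC slope of 0.06 became 0.16 with 1 transcript per gene and 0.0097 at a mean count of 50 or more. The period test, with 81 transcripts past the threshold, gave 3905 with DESeq2, 3637 without a filter (2204 higher and 1433 lower), 189 without both 72 h libraries, 0 without the term for the state, 19 with the GC trend removed and 57 with DESeq2 size factors. Leaving out 1 of the 4 libraries of 24 and 36 h, an alternative added after the data were seen, gave 0 to 2757. All named transcripts past 4-fold kept their direction and a 4-fold difference under total counts, DESeq2 size factors, prior counts of 0.5 and 5 and the removed GC trend. Ratios from under about 10 counts in either library are limited by depth.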
